A study of Mus musculus with 4 samples.

Results

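Cluster 6 was the group of cells that the authors' deposited table of CD45+ tumour leukocytes numbers 6. It is described here as T cells with a high level of Il7r, the gene of the interleukin-7 receptor alpha chain. Its members were taken by that deposited cluster number alone, with no expression threshold, and they came to 992 of the 14491 listed cells. Of these, 192 came from the aPD1 library, 187 from the aCTLA4 library, 409 from the combination library and 204 from the control library. The clustering was made from expression in these same cells, so a difference between cluster 6 and another cluster is given as a description, with no test.

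The mice were wild type and of strain 129S6, and all carried transplanted tumours. They received intraperitoneal antibody RMP1-14 against PD-1 (the aPD1 group), antibody 9D9 against CTLA-4 (the aCTLA4 group), the pair in combination, or, as the control, rat IgG2a isotype antibody, at 200 µg on days 3, 6 and 9 after transplant. Established tumours were digested with collagenase, live CD45+ cells (CD45 is carried by all leukocytes) were sorted, and droplet-based 3′ libraries with unique molecular identifiers (UMIs) were made. There was 1 library per group and the sources used here give no number of mice behind it, so antibody, library and mouse cannot be told apart, no test between groups was possible, and every interval below is a 95% interval that covers counting error only.

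Cluster 6 cells were shallow, with a median of 1249 UMIs in the aPD1 library, 1329 in the aCTLA4 library, 1175 in the combination library and 1366 in the control library. Summed over cells these made 281870, 294853, 571749 and 332944 UMIs. The lowest total of any listed cell was 826 UMIs in the aPD1 library, 881 in the aCTLA4 library, 792 in the combination library and 993 in the control library, so the depth at which a cell was listed differed between libraries. Cells under 1000 UMIs made up 23.4%, 13.4% and 29.6% of cluster 6 in the aPD1, aCTLA4 and combination libraries, against 0.98% in the control library. Mitochondrial transcripts made up 1.39%, 1.22% and 1.04% of the UMIs of cluster 6 in those antibody libraries, against 1.47% in the control library. Across libraries, 12 cluster 6 cells had a barcode that was also in the matrix of another library, whether listed there or not.

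Interleukin-7 is a survival factor for resting and memory T cells, and its receptor is usually lost when T cells turn into short-lived effectors. Tcf7 encodes TCF-1, a transcription factor of naive, memory and stem-like T cells, and KLF2, encoded by Klf2, maintains S1pr1, the receptor with which lymphocytes leave tissue. The Klra genes encode the Ly49 receptors, which natural killer (NK) cells and some T cells of the mouse use to read class I MHC molecules.

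Cluster 6 carried both transcripts by which it is named, but neither was particular to it. Levels are given in CPM, the UMIs of a gene in each 1000000 UMIs summed over the cells concerned. Over the 4 libraries Il7r stood at 352 CPM with a UMI in 34.3% of cluster 6 cells, against 282 CPM and 32.5% in cluster 10, 148 CPM and 23.3% in cluster 3, 143 CPM and 25.8% in cluster 8, and 60.8 CPM and 20.6% in cluster 9. Clusters 3, 8, 9 and 10 are the other T cell clusters of the deposited table. The share of cells with an Il7r UMI in macrophage clusters 1 and 2 was 6.67% at 22.3 CPM, at a median of 3519 UMIs per cell against 1246 in cluster 6. Genes were ordered by the log2 ratio of cluster 6 to the other T cell clusters. Il7r was number 30 of 1290 genes that met the level rule and had the same sign of the ratio in all 4 libraries. It was thus high in the cluster without being its leading gene. Cd3e, a chain of the T cell receptor complex, stood at 554 CPM in cluster 6 with a UMI in 52.8% of cells, against 833, 791, 518 and 661 CPM in clusters 3, 8, 9 and 10 and 8.68 CPM in macrophages.

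Most cluster 6 cells had no UMI of either coreceptor. Neither Cd4 nor a Cd8 gene was seen in 77.1%, 71.1% and 71.9% of cluster 6 cells in the aPD1, aCTLA4 and combination libraries, against 74.5% in the control library. The pooled share was 73.3% of 992 cells. Among the 799 cells that reached 1000 UMIs, each thinned to that number, it was 77.8%, the shallower cells being left out. In cluster 3 the share was 38.8%, or 63.7% of the cells thinned the same way, and in cluster 8 it was 6.21%, or 18.3% thinned, so the excess in cluster 6 was present at equal depth. Foxp3, which marks regulatory T cells, had 5 UMIs in all of cluster 6, a level of 3.38 CPM against 176 CPM in cluster 10. No UMI of Il17a, the interleukin-17 gene, was seen. Gata3, Tbx21 and Rora, factors of type 2, type 1 and tissue lymphocytes, stood at 91.8, 36.5 and 64.1 CPM, with log2 ratios to the other T cell clusters of 0.54, -0.59 and -0.05. The helper cell cytokine genes Il13, Cd40lg and Tnfsf11 had 11, 21 and 4 UMIs, while Cxcr3, a chemokine receptor, had 175 CPM and Ltb, a cytokine of resting lymphocytes, 1478 CPM. The constant genes of the T cell receptor chains were not analysed here, so alpha-beta and gamma-delta T cells cannot be told apart in these cells.

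**Figure D1:**
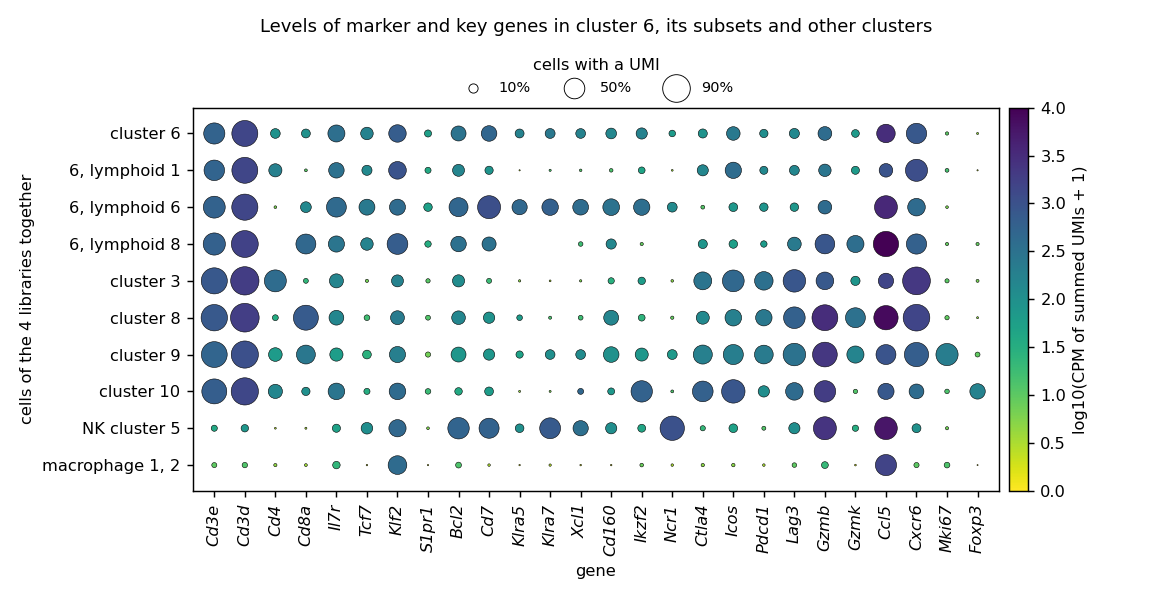
Levels of 26 genes in cluster 6, in its lymphoid-table subsets, in T cell clusters 3, 8, 9 and 10, in NK cluster 5 and in macrophage clusters 1 and 2, pooled over 4 libraries; dot area gives the percentage of cells with a UMI and colour the level as log10 of CPM plus 1. Il7r is shared with cluster 10 and Tcf7 is highest in cluster 6. Within cluster 6 the Klra genes are found mainly in the lymphoid 6 subset, and they are also found in NK cells and in some cells of the other T cell clusters.

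Against the other T cell clusters together, cluster 6 had higher transcripts of genes of resting and recirculating T cells, lower transcripts of the cell cycle and granzymes, and a set of Klra genes. Among 9861 genes with enough UMIs, 486 were at least 2-fold higher in cluster 6, which is 4.93%, and 868 were at least 2-fold lower, which is 8.8%. Only genes with at least 20 UMIs in the larger of the sums compared were counted, whichever side had the higher CPM. The other T cell clusters held 8541130 UMIs against 1481416 in cluster 6, so genes lower in cluster 6 were counted from a lower level. The higher and lower counts can therefore not be set against each other. Without each gene's top cell per library the counts were 145 higher and 1548 lower, and after thinning to 1000 UMIs 241 were higher. Leaving out top cells kept the totals, so cluster 6, with 992 cells against 2837, can lose a larger part than the other T cell clusters.

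Tcf7 stood at 167 CPM in cluster 6 with a UMI in 18.5% of cells, against 5.95, 16.0, 26.8 and 31.4 CPM in clusters 3, 8, 9 and 10. The log2 ratio of cluster 6 to the other T cell clusters was 3.19 for Tcf7, and within single libraries it was 3.03 with aPD1, 3.03 with aCTLA4, 2.82 with the combination and 4.02 in the control. The gene was thus higher in cluster 6 in each of the 4 libraries, which the ranking of genes above also required. Il7r had a log2 ratio of 1.46 (1.74, 2.04, 1.34 and 1.19 in the aPD1, aCTLA4, combination and control libraries). Klf2 had a ratio of 1.70, at 697 CPM in cluster 6 against 173, 228, 192 and 410 CPM in clusters 3, 8, 9 and 10. Klf2 is not a T cell gene alone, and macrophages had 413 CPM of it. S1pr1 had a log2 ratio of 2.56, or 2.20 without the 1 cell that held the most UMIs. Bcl2, which encodes a survival protein induced by interleukin-7, had a ratio of 1.58 and was higher in cluster 6 in each library, by 1.22, 1.55, 1.06 and 2.30 in the aPD1, aCTLA4, combination and control libraries.

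Cd7, a surface protein of T and NK cells, stood at 496 CPM in cluster 6 against 17.9 to 93.8 CPM in the other T cell clusters, and NK cluster 5 had 574 CPM of it. Lef1 and Ccr7, which mark naive and central memory T cells, had smaller log2 ratios of 0.71 and 0.38. Of 26 measured genes on a list of naive, memory and recirculating T cell genes, 22 were higher and 4 lower in cluster 6, with a median log2 ratio of 0.76 where the median over all genes was -0.05. Of the 17 measured genes of signalling by interleukin-7 and related cytokines, 8 were higher and 9 lower, with a median of -0.11, so Il7r and Bcl2 were not accompanied by the rest of that list.

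The genes that were lower in cluster 6 were led by the cell cycle. All 25 measured cell cycle genes were at least 2-fold lower, with a median log2 ratio of -2.51, and Mki67, a marker of dividing cells, had a ratio of -3.09. Cluster 9 alone had 208 CPM of Mki67. It also gave 3172603 of the 8541130 UMIs of the other T cell clusters. These ratios therefore do not show how cluster 6 stood against clusters 3, 8 and 10 without it. The lowest ratio by the fixed rule was that of Ccl1, a chemokine, with 1 UMI in cluster 6 against 862 in the other T cell clusters and a log2 ratio of -6.64. After it came Nusap1 (-5.18), Hist1h2ae (-4.96), Hist1h2ap (-4.40), Ccna2 (-4.32), 2810417H13Rik (-4.28), Ccnb1 (-4.21) and Cenpf (-4.08), all of which, apart from Ccl1, are genes of replication or division.

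Granzymes and effector molecules were lower as well. Of 18 measured granzyme and cytotoxicity genes, 16 were lower, 11 of them at least 2-fold, with a median log2 ratio of -1.15. Gzmb, a granzyme, stood at 404 CPM in cluster 6 against 798, 3161, 2364 and 1932 CPM in clusters 3, 8, 9 and 10. Of 12 measured inhibitory receptor genes 4 were higher and 8 lower, with a median of -0.74, where 46.5% of all genes were higher. Values of 3 of them follow. Pdcd1, the gene of PD-1 itself, stood at 108 CPM in cluster 6 against 345, 251, 222 and 107 CPM in clusters 3, 8, 9 and 10. Ctla4 stood at 87.1 CPM against 293, 128, 185 and 594 CPM in those clusters, and Lag3, another inhibitory receptor, at 137 CPM against 841, 600, 310 and 410 CPM. Transcripts of both antibody targets were thus present in cluster 6, with Ctla4 below all 4 other T cell clusters and Pdcd1 below 3 of them.

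Single cells carried part of the upper end of the ranking. Cpa3 and Cma1, mast cell proteases, had log2 ratios of 9.20 and 7.09 that came from 3 and 5 cells of cluster 6. Cxcl13, a chemokine, had a ratio of 4.41 with 98.9% of its UMIs in 1 cell, and -1.02 without that cell. Samd3 kept a ratio of 2.22 and Tespa1 of 2.10 when the cell with most UMIs was left out, compared with 2.80 and 2.55 with it.

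In the deposited table in which lymphoid cells were clustered again, cluster 6 split into a few groups with different genes. Lymphoid cluster 1 took 519 cells (52.3%), lymphoid cluster 6 took 340 (34.3%) and lymphoid cluster 8 took 81. Seen from the other side, cluster 6 held 81.3% of the 638 cells of lymphoid cluster 1, 89.2% of the 381 cells of lymphoid cluster 6 and 27.4% of the 296 cells of lymphoid cluster 8. The combination library gave 298 of the 519 lymphoid 1 cells, and with 1 library per group a cluster made mostly of 1 library may be that library rather than a type.

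**Figure D2:**
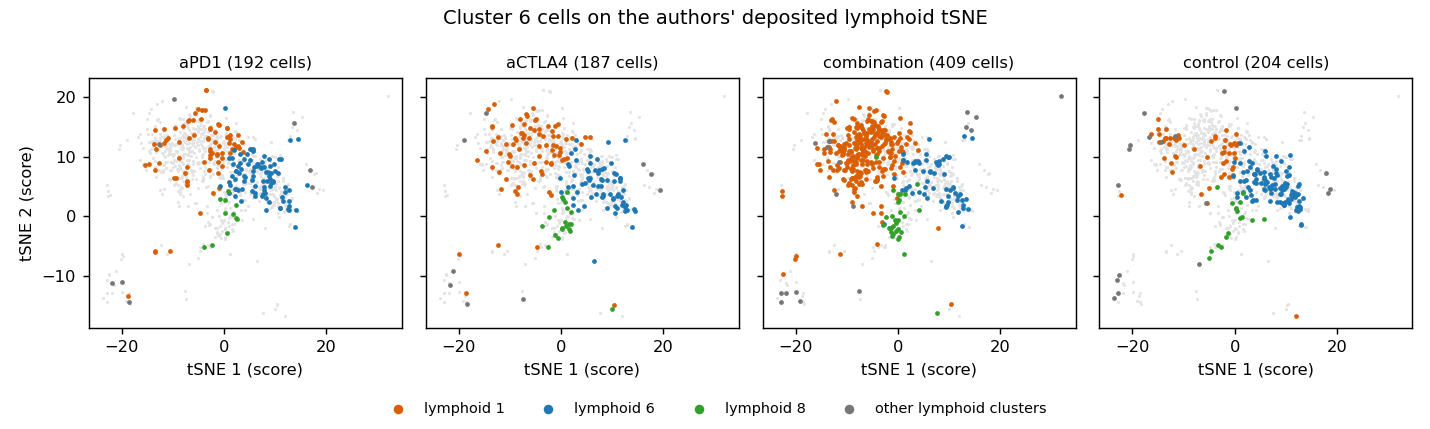
Cluster 6 cells on the authors' deposited tSNE coordinates of the lymphoid table (both axes are tSNE scores without a unit), 1 panel per library, coloured by lymphoid cluster, with cluster 6 cells of all libraries in grey. Lymphoid 1 cells are 298 of 409 in the combination panel, against 55 of 204 in the control panel.

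The lymphoid 1 cells carried Cd4 and activation genes. All genes named here but Icos come from the top of the order without top cells, since the 5 highest by the fixed rule lay in 1 to 5 cells each. That order was itself still led by the mast cell proteases Cpa3 and Cma1, ahead of Cd4. They had 153 and 222 UMIs in 3 cells each of the aCTLA4 library. Serpinb1a, at place 6, is not described further. Cd4 had 130 UMIs in 106 lymphoid 1 cells, against 5 UMIs in the rest of cluster 6, a log2 ratio of 4.70 (interval 3.57 to 6.48). Cd4 without Cd8 was seen in 20.04% of the 519 lymphoid 1 cells, and in 15.6% of the 384 that reached 1000 UMIs and were thinned to that number. Neither coreceptor was seen in 76.5% of the 519 cells. Tnfrsf4 (OX40, a costimulatory receptor) had a ratio of 2.34, Icos 2.09, Ctla4 2.10 and Maf, a transcription factor of helper T cells, 2.55. Ly6c1 had a ratio of 3.44, Furin 3.08, Tbc1d4 2.45 and Casp1 2.68. Each of these 8 genes and Cd4 was higher in lymphoid 1 than in the rest of cluster 6 in every library.

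Among lymphoid 1 cells 24 of 26 measured immediate early genes and 19 of 22 glycolysis genes were higher than in the rest of cluster 6, with medians of 0.82 and 0.72, where 47.3% of all genes were higher. In lymphoid 6 cells the counts were 3 of 26 and 1 of 22, with medians of -0.69 and -0.84, where 44.7% of all genes were higher.

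Cd8 and no Cd4 was seen in 87.7% of lymphoid 8 cells (71 of 81). Of the 154 cluster 6 cells with Cd8 and no Cd4, another 64 lay in lymphoid 6 and 16 in lymphoid 1. The 5 highest lymphoid 8 genes by the fixed rule, Cxcl13, Gm4723, Ska2, Det1 and Lyz1, each had at least 92% of their UMIs in 1 cell. With top cells left out, Cd8b1 led. It had a log2 ratio to the rest of cluster 6 of 4.35, Cd8a of 2.84, Gzmk of 3.26 and Ccl5, a chemokine of effector and memory CD8 cells, of 2.62. The macrophage genes C1qa, C1qb and C1qc also stood high in that order, with ratios of 2.68, 2.23 and 2.12, of which 1.97, 1.62 and 1.23 were left without top cells. Their part in the lymphoid 8 values was not tested.

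The lymphoid 6 cells were those with Ly49 receptors. Klra5 had 252 UMIs in 93 lymphoid 6 cells and 1 UMI in all other cluster 6 cells, Klra6 had 123 UMIs in 72 cells against 1 UMI, and Klra8 had 71 UMIs in 48 cells against 1 UMI. Klra7 had 340 UMIs in 109 lymphoid 6 cells against 28, Klra4 had 151 in 86 cells against 12, and Klra1 had 86 in 66 cells against 4. The other T cell clusters carried some as well. Clusters 3, 8, 9 and 10 together held 270 UMIs of Klra5 in 71 cells and 367 of Klra7 in 80 cells, among 8541130 UMIs against 1481416 in cluster 6. Any of these 6 Klra genes was seen in 55.9% of lymphoid 6 cells (190 of 340), in 0.963% of lymphoid 1 cells (5 of 519), in 1.48% of cluster 3, in 6.21% of cluster 8, in 83.9% of NK cluster 5 and in 1.73% of macrophages, the last being the level seen in cells that should lack them.

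The Klra family was not spread over cluster 6 in the same proportions as over NK cells. Klra5 stood at 171 CPM in cluster 6 and 103 CPM in NK cluster 5, and Klra6 at 83.7 against 23.8 CPM. Klra4 stood at 110 CPM in cluster 6 against 974 CPM in NK cells, Klra7 at 248 against 762 CPM, Klra8 at 48.6 against 231 CPM and Klra1 at 60.8 against 209 CPM. Klra5 and Klra6 were thus higher in cluster 6 and the other 4 genes higher in NK cells. Ncr1, which encodes the NK cell receptor NKp46, stood at 64.1 CPM in cluster 6 against 1031 CPM in NK cluster 5, where 69.9% of cells had a UMI of it. The cluster 6 value is a mean over unlike subsets and is not the level of lymphoid 6 cells. Lymphoid 1 cells alone had an Ncr1 log2 ratio to the other T cell clusters of -3.11, the reverse of cluster 6 as a whole. Without top cells, Ncr1 was the lowest gene of cluster 6 in the combination library against control and against aPD1.

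Other genes of the lymphoid 6 cells were Xcl1, a chemokine of NK and CD8 cells (221 UMIs against 29 in the rest of cluster 6, log2 ratio 3.66), Cd160 (3.03), Ikzf2, the gene of the transcription factor Helios (2.88), Cd7 (2.80), Ly6c2 (1.59) and Bcl2 (1.54). Xcl1, Cd160, Ikzf2, Cd7 and Ly6c2 were higher in lymphoid 6 in each of the 4 libraries, whereas Bcl2 was at -0.01 in the aPD1 library and above 0 in the other 3. Of 8 measured NK markers 6 were higher in lymphoid 6 than in the rest of cluster 6, with a median of 1.81. The share of all genes that were higher is given above with the immediate early genes of lymphoid 6 cells. Neither Cd4 nor a Cd8 gene was seen in 80.3% of the 340 lymphoid 6 cells. Whether all of them were T cells was not tested.

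The Klra genes lie side by side on mouse chromosome 6 and their transcripts are alike, so the authors' assignment of reads to single members is uncertain, more so because the reference is C57BL/6J and the mice were 129S6, whose Ly49 gene content differs. In the reference, the share of 50-base words in the last 500 bases of a member's transcripts that another Klra gene also holds was 0% for Klra5, 3.10% for Klra6, 4.66% for Klra4, 5.76% for Klra1, 13.1% for Klra8 and 22.1% for Klra7.

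The start regions of Klra6, Klra7 and Klra5 are shown because these genes mark the lymphoid 6 cells and because Tcf7, whose protein binds the core CTTTG followed by AA, AT, TT or TA, was among the leading genes of the same cluster. Each window runs 250 bases before to 50 bases after an annotated gene start on the minus strand (RefSeq, GRCm38.p6), 5′ to 3′, with a match to any of these 7-letter words on either strand in capitals. The windows are chr6:130026905-130027204 for Klra6, chr6:130233273-130233572 for Klra7 and chr6:129913175-129913474 for Klra5.

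Klra6: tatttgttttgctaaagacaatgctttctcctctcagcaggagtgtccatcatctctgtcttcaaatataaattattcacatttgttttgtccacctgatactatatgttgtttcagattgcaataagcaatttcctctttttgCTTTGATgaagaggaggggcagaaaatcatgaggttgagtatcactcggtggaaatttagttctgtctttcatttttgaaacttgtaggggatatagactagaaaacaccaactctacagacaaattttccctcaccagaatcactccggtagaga

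Klra7: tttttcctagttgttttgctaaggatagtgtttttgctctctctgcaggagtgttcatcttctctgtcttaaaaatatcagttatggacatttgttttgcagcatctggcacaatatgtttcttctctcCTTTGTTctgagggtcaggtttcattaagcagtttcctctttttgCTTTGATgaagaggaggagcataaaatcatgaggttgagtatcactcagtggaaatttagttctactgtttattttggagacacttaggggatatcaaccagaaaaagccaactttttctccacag

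Klra5: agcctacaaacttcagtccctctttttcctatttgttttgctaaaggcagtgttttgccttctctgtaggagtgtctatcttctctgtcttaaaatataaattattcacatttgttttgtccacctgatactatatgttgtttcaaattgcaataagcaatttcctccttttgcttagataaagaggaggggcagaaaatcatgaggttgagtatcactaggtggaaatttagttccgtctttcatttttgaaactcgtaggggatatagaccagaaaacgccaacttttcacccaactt

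Klra6 held 1 match, CTTTGAT at base -106 from the gene start, and this window of Klra7 held 2, CTTTGTT at -121 and CTTTGAT at -76. Klra5, Klra1, Klra4 and Klra8 held none in their windows, and a second Klra7 window held 1. Klra8 and Klra1, whose windows are not shown, stood above Klra7 in the order of lymphoid 6 genes. The Klra7 window shown was the one with more matches. In all, 3 of the 8 windows of these genes held a match, and 16.9% of 32851 windows of all genes did. A match is a description of the letters and says nothing of binding in these cells.

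Cluster 6 made up 5.62% (4.87 to 6.44) of listed cells in the aPD1 library, 5.61% (4.85 to 6.44) in the aCTLA4 library and 10.4% (9.43 to 11.4) in the combination library, against 5.38% (4.68 to 6.14) in the control library. The ratio to the control share was 1.04 (0.853 to 1.28) with aPD1, 1.04 (0.850 to 1.28) with aCTLA4 and 1.93 (1.63 to 2.29) with the combination. The combination library therefore differed from the control beyond counting error, and the single-antibody libraries did not. Among cells with at least 1000 UMIs the shares were 4.56%, 5.04% and 7.95% in the aPD1, aCTLA4 and combination libraries, against 5.34% in the control library, and the combination ratio was 1.49 (1.24 to 1.79). Part of the combination excess thus lay in cells below a depth at which the control library listed hardly any.

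Among the 5 T cell clusters, cluster 6 took 27.6%, 24.3% and 32.6% in the aPD1, aCTLA4 and combination libraries, against 18.4% in the control library. The ratios to control were 1.50, 1.32 and 1.77, or 1.28, 1.21 and 1.42 among cells with at least 1000 UMIs. These ratios also moved with the other T cell clusters, which together made up 14.7%, 17.5% and 21.5% of listed cells in the antibody libraries, against 23.8% in the control library. Cluster 10 had ratios to control of 0.50, 0.30 and 0.48 with aPD1, aCTLA4 and the combination, and cluster 8 of 0.40, 0.41 and 0.73.

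The makeup of cluster 6 differed between the libraries more than its size. Lymphoid 1 cells made up 42.2% of cluster 6 in the aPD1 library, 45.5% in the aCTLA4 library and 72.9% in the combination library, against 27.0% in the control library. Lymphoid 6 cells made up 47.9%, 38.5% and 15.2% in the antibody libraries, against 55.9% in the control library. As shares of all listed cells, lymphoid 1 cells of cluster 6 were 2.37%, 2.55% and 7.55% with aPD1, aCTLA4 and the combination, against 1.45% in the control library, which are ratios of 1.63, 1.76 and 5.21. Lymphoid 6 cells of cluster 6 were 2.69%, 2.16% and 1.57%, against 3.01%, which are ratios of 0.90, 0.72 and 0.52. Restricted to cells with at least 1000 UMIs, the combination ratios were 4.02 (2.97 to 5.53) for lymphoid 1 and 0.443 for lymphoid 6, so the opposite directions were present above that depth. For aPD1 the lymphoid 1 ratio was then 1.11 (0.741 to 1.66) with 1 inside its interval, and for aCTLA4 it was 1.55 (1.07 to 2.25). The lymphoid 8 cells made up 5.73%, 11.2% and 7.82% of cluster 6 in the antibody libraries, against 8.33% in the control library.

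**Figure D3:**
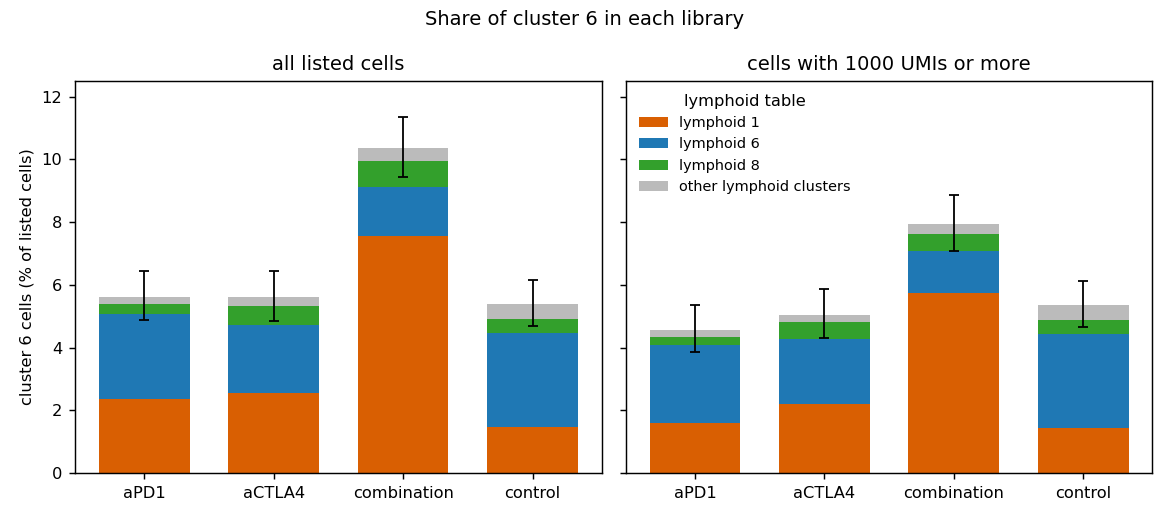
Cluster 6 as a percentage of listed cells in each library, stacked by lymphoid cluster, for all listed cells (left) and for cells with at least 1000 UMIs (right); whiskers are 95% binomial intervals of the whole bar. The combination bar reaches 10.4% on the left and 7.95% on the right, with lymphoid 1 cells as its largest part.

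Between the antibody libraries and the control library, gene levels in cluster 6 were compared as log2 ratios of CPM. With aPD1, 154 genes were at least 2-fold higher than in control (6.54% of 2353) and 180 at least 2-fold lower (7.65%). With aCTLA4 the counts were 154 higher (6.42% of 2397) and 180 lower (7.51%), and with the combination 282 higher (8.28% of 3406) and 174 lower (5.11%). All 3 comparisons share the control library. A minimum of 20 UMIs is a lower CPM where the total is larger, and the combination total was 571749 UMIs against 332944 in the control. A gene higher with the combination was thus counted from a lower level than a gene lower with it. The higher and lower counts can therefore not be set against each other. Without top cells the counts were 32, 47 and 174 higher and 61, 77 and 58 lower with aPD1, aCTLA4 and the combination. That step took 1 cell per gene from each library and kept the totals, so a library with fewer cells can lose a larger part. Cluster 6 had 204 cells in the control library against 409 with the combination. The higher and lower counts without top cells can therefore not be set against each other. Many of the largest ratios rested on single cells: of the 8 highest and the 8 lowest genes by the fixed rule in each comparison, every gene had over 20% of its UMIs in 1 cell, and with aPD1 all had over 50%. Serpine2 led the aPD1 ranking with 31 UMIs in 2 cells against 0 in control, and Cpa3 led the aCTLA4 ranking with 153 UMIs in 3 cells against 0. Cxcl13 was lowest in all 3 comparisons, with 0 UMIs in each antibody library against 90 in control, of which 98.9% lay in 1 cell. The combination ranking was led by Chil3, with 51 UMIs in 18 cells against 0, which is at least 9.90-fold higher than the limit of 3 UMIs in the control library. Chil3, Arg1 and Mmp12, with the combination in 18, 53 and 17 cells, had 35.3%, 24.1% and 29.4% of their UMIs in 1 cell and did not rest on it. Ms4a7, among the lowest with aCTLA4, had 1 UMI there against 36 in 12 control cells. The genes described next were seen in many cells, and a ratio that 1 cell moved is also given without it.

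Immediate early and stress-response transcripts were higher in cluster 6 of the antibody libraries. Junb, a subunit of the AP-1 transcription factor, stood at 731 CPM with aPD1, 933 with aCTLA4 and 1525 with the combination, against 484 in the control. All 3 antibody libraries exceeded the control, with log2 ratios of 0.59 (0.29 to 0.90), 0.95 (0.66 to 1.24) and 1.65 (1.41 to 1.91). Jund stood at 532, 621 and 974 CPM in the antibody libraries, against 405 CPM in control. Klf2 stood at 646, 610 and 997 CPM, against 300 CPM, with ratios of 1.10, 1.02 (0.76 without the top cell) and 1.72. Nfkbia, the inhibitor of NF-kB that NF-kB itself induces, stood at 401, 729 and 635 CPM, against 219 CPM. Ppp1r15a, a gene of the cellular stress response, stood at 124, 132 and 149 CPM, against 39.0 CPM, and Tnfaip3, a brake on NF-kB, at 95.8, 180 and 222 CPM, against 48.1 CPM.

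Of the measured immediate early genes, 15 of 19 were higher with aPD1, 16 of 19 with aCTLA4 and 23 of 25 with the combination, with medians of 0.34, 0.46 and 0.88. Over all genes, 47.9%, 46.4% and 53.8% were higher and the medians were -0.02, -0.04 and 0.04. The immediate early list is also the list of genes that tissue digestion is known to induce, and its part in these ratios was not tested.

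The same genes were higher in the other T cell clusters, and in cluster 6 they differed between subsets. In clusters 3, 8, 9 and 10 together, Junb had ratios of 0.23, 0.65 and 1.09 with aPD1, aCTLA4 and the combination, Klf2 of 0.79, 0.85 and 1.85 and Nfkbia of 0.55, 0.78 and 1.46. In lymphoid 1 cells of cluster 6, Junb had ratios of 1.32, 1.74 and 1.73 and Klf2 of 2.28, 2.04 and 2.25, on a control side of only 55 cells and 74281 UMIs. In lymphoid 6 cells, Junb had ratios of 0.16, 0.32 and 1.91 (1.53 to 2.31) and Klf2 of -0.054, -0.65 and 1.37 (0.88 to 1.87). In lymphoid 6 cells the combination thus stood apart from both single antibodies in these genes, whereas in lymphoid 1 cells the 3 antibody libraries lay close to each other.

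Glycolysis genes were higher in 13 of 14, 14 of 15 and 20 of 20 measured members with aPD1, aCTLA4 and the combination, with medians of 0.45, 0.45 and 0.78. Within lymphoid 1 cells the medians were 0.57, 0.33 and 0.59, and within lymphoid 6 cells 0.34, -0.02 and 0.02. In the other T cell clusters they were 0.14, 0.33 and 0.46. Of the measured NF-kB and TNF target genes, 6 of 6, 7 of 7 and 10 of 12 were higher in cluster 6, with medians of 0.69, 0.90 and 0.66.

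**Figure D4:**
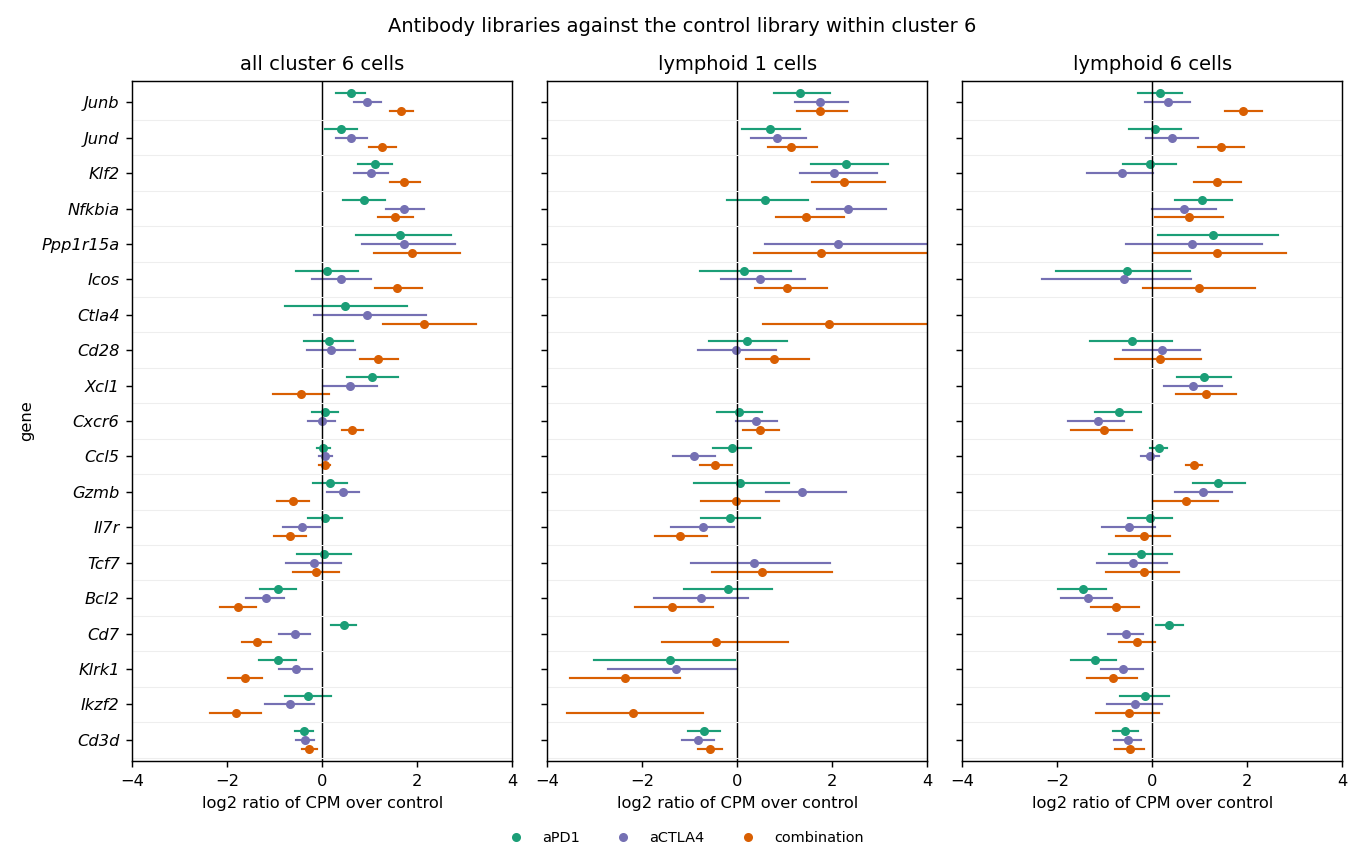
Log2 ratio of CPM of the antibody libraries to the control library for 19 genes in all cluster 6 cells, in its lymphoid 1 cells and in its lymphoid 6 cells; bars are 95% counting intervals, drawn to the axis end where they pass it, and points need 20 UMIs in both libraries together. Junb in all cluster 6 cells lies at 0.59, 0.95 and 1.65 with aPD1, aCTLA4 and the combination, and Bcl2 at -0.93, -1.20 and -1.77.

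Icos, Cd28 and Ctla4 were higher with the combination. Of the measured costimulatory receptor genes 4 of 6 were higher, with a median of 0.63, and of the inhibitory receptor genes 3 of 5, with a median of 0.04, where 53.8% of all genes were higher. Icos, a costimulatory receptor, stood at 138 CPM with aPD1, 170 with aCTLA4 and 387 with the combination, against 129 in the control, and the ratios were 0.10, 0.39 and 1.57 (1.10 to 2.09). Cd28 stood at 224, 231 and 463 CPM, against 204 CPM, and Ctla4 at 46.1, 64.4 and 150 CPM, against 33 CPM. For all 3 genes the single-antibody libraries lay nearer to the control than the combination library did. Icos and Ctla4 were also higher in lymphoid 1 cells than in the rest of cluster 6, and the combination library held more lymphoid 1 cells. Within lymphoid 1 cells the combination ratios were 1.05 (0.37 to 1.89) for Icos, 0.78 for Cd28 and 1.93 for Ctla4. In the other T cell clusters the combination ratios were -0.37, 0.14 and 0.05. Set against the single antibodies in all cluster 6 cells, the combination had a log2 ratio for Icos of 1.47 (0.99 to 2.01) to aPD1 and 1.18 (0.74 to 1.66) to aCTLA4.

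Cd4 had 67.4, 61.0 and 143 CPM in the antibody libraries, against 48.1 CPM in control, with a combination ratio of 1.54 in all cluster 6 cells and -0.089 within lymphoid 1 cells. The Cd4 difference in cluster 6 was thus not seen inside that subset, which was itself made from expression in these same cells. Cxcr6, a chemokine receptor of tissue T cells, stood at 699, 668 and 1041 CPM, against 673 CPM. Within lymphoid 1 cells its ratios were 0.05, 0.39 and 0.47 with aPD1, aCTLA4 and the combination, and within lymphoid 6 cells they were -0.71, -1.15 and -1.02.

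Genes of survival and of the resting state did not share 1 direction. Il7r stood at 451 CPM with aPD1, 322 with aCTLA4 and 271 with the combination, against 436 in the control. A UMI of Il7r was seen in 39.1%, 34.8% and 26.9% of cells, against 44.1%, so with aPD1 the share lay below the control and the level above it. The ratios were 0.05 (-0.31 to 0.40), -0.43 (-0.82 to -0.05) and -0.68 (-1.02 to -0.35). The combination library was thus below the control and the aPD1 library was not separable from it. In lymphoid 1 cells the combination ratio of Il7r was -1.20 (-1.73 to -0.63), and in lymphoid 6 cells it was -0.17. In the other T cell clusters Il7r had ratios of -0.50, -1.29 and -0.84.

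Tcf7 stood at 181, 156 and 161 CPM in the aPD1, aCTLA4 and combination libraries, against 177 CPM in the control, with ratios of 0.03, -0.18 and -0.14, so the 4 libraries lay close together. Bcl2 stood at 294, 244 and 164 CPM, against 562 CPM, with ratios of -0.93 (-1.32 to -0.55), -1.20 (-1.61 to -0.80) and -1.77 (-2.15 to -1.41). Bcl2 was below the control in all 3 antibody libraries. Within lymphoid 6 cells, which held most of it, Bcl2 stood at 294, 316 and 476 CPM, against 813 CPM, and the ratios without the top cell were -1.17, -1.11 and -0.51. In the other T cell clusters they were 0.16, -0.44 and -0.53. Of the measured naive and memory genes 12 of 16, 10 of 17 and 8 of 19 were higher, with medians of 0.12, 0.14 and -0.03. They are to be read beside the shares over all genes given with the immediate early genes. With the combination the share of naive and memory genes was below that of all genes.

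Cd3d, a chain of the T cell receptor complex, stood at 1316, 1326 and 1413 CPM in the antibody libraries, against 1712 CPM in the control, with ratios of -0.38, -0.37 and -0.28. It was lower in all antibody libraries, also within lymphoid 1 and lymphoid 6 cells, and in the other T cell clusters the ratios were -0.17, -0.33 and -0.12.

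The Klra genes were lower in cluster 6 with the combination, as was the share of the lymphoid 6 cells that carry them. Any of the 6 Klra genes was seen in 25.0%, 24.6% and 9.05% of cluster 6 cells in the aPD1, aCTLA4 and combination libraries, against 35.8% in the control library. Within lymphoid 6 cells these shares were 50%, 58.3% and 51.6%, against 61.4%. Macrophages, which should lack these genes, had shares of 2.34%, 1.41% and 0.318%, against 2.59%. The 4 libraries thus lay closer together inside the subset than in cluster 6 as a whole. The subset was made from expression in these same cells, so this is a description.

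Inside lymphoid 6 cells, Klra5 and Klra1 were lower in the antibody libraries. Klra5 stood at 274 CPM with aPD1, 268 with aCTLA4 and 421 with the combination, against 758 in the control, with ratios of -1.46, -1.49 and -0.83. Klra1 stood at 91.4, 122 and 119 CPM in lymphoid 6 cells, against 253 CPM, with ratios of -1.43, -1.02 and -1.04. Klra7 stood at 418, 795 and 670 CPM, against 638 CPM, and Klra6 at 144, 325 and 205 CPM, against 231 CPM. Klra5 and Klra1 were therefore below the control in all 3 antibody libraries, and Klra6 and Klra7 lay on both sides of it. In the other T cell clusters Klra1 had ratios of 0.68, 0.26 and -1.67, and Klra5 of -0.77, -1.01 and -2.42.

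**Figure D5:**
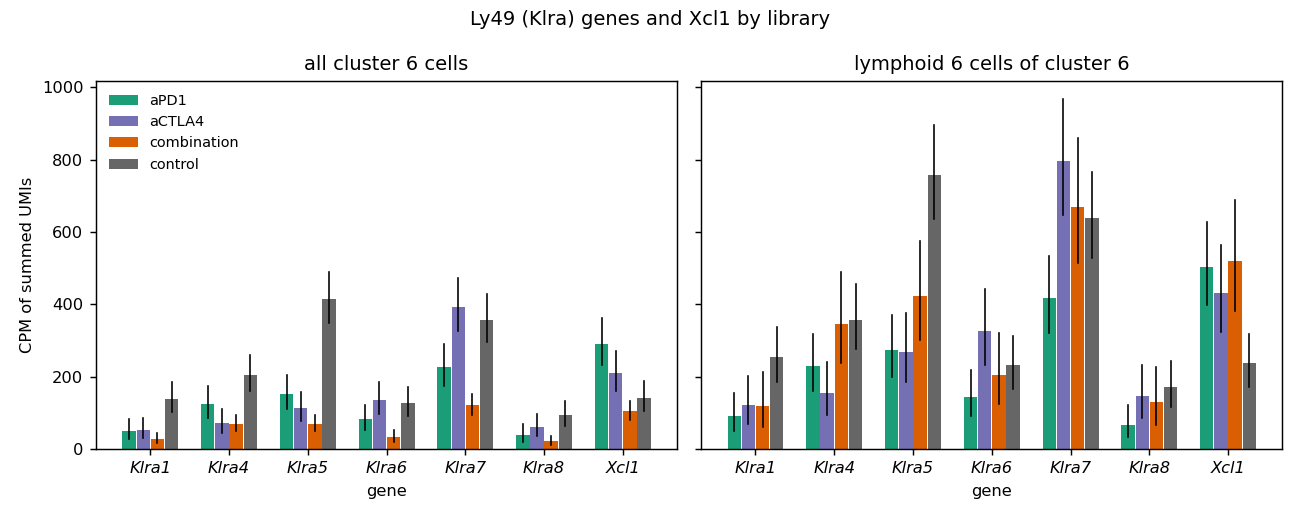
Levels in CPM of 6 Klra genes and Xcl1 by library, in all cluster 6 cells and in its lymphoid 6 cells, with 95% Poisson intervals. Klra5 in lymphoid 6 cells is at 274, 268 and 421 CPM with aPD1, aCTLA4 and the combination, against 758 CPM in the control.

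Xcl1 went the other way inside lymphoid 6 cells. It stood at 503, 430 and 519 CPM there with aPD1, aCTLA4 and the combination, against 236 CPM in the control, with ratios of 1.08 (0.53 to 1.66), 0.86 (0.26 to 1.48) and 1.13 (0.51 to 1.76), or 0.81, 0.56 and 0.82 without the top cell. All antibody libraries were thus above the control in this subset. In cluster 6 as a whole Xcl1 stood at 291, 210 and 103 CPM, against 141 CPM, so the combination library was below the control there.

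Gzmb within lymphoid 6 cells stood at 607, 487 and 378 CPM, against 231 CPM in the control. The aPD1 ratio was 1.39 (0.85 to 1.96), while the combination ratio of 0.72 turned to -0.26 without the top cell. Klrk1, the gene of the NKG2D receptor, stood at 284, 370 and 177 CPM in all cluster 6 cells, against 547 CPM, and its ratios of -0.94, -0.56 and -1.63 were accompanied by -1.21, -0.62 and -0.82 within lymphoid 6 cells and -0.53, -0.58 and -1.10 in the other T cell clusters. Ikzf2 stood at 227, 173 and 78.7 CPM in cluster 6, against 279 CPM, but at 385, 333 and 303 CPM within lymphoid 6 cells, against 429 CPM.

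Some effector transcripts were too rare in the control for a firm ratio. Ifng had 3 UMIs in cluster 6 of the control library, and its ratios were 2.86 with aPD1 (1.62 without the 1 cell that held 71.4% of the UMIs, and -0.027 when cells were thinned to 1000 UMIs), 1.76 with aCTLA4 and 3.33 with the combination (3.09 without the top cell). Gzmk stood at 49.7, 44.1 and 119 CPM in the antibody libraries, against 12 CPM from 4 UMIs in the control. Ccl5 stood at 3026, 3117 and 3075 CPM, against 2979 CPM, with ratios of 0.02, 0.07 and 0.05, and Lag3 at 142, 102 and 149 CPM, against 144 CPM. Pdcd1 stood at 245, 74.6 and 54.2 CPM, against 114 CPM, and the aPD1 ratio of 1.09 was 0.06 without the cell that held 58.0% of its UMIs. Isg15, an interferon-induced gene, had ratios of 1.50, 1.99 and 0.42, and 12 of 16, 12 of 16 and 12 of 17 measured interferon genes were higher, with medians of 0.36, 0.21 and 0.09.

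Transcripts of macrophages were present in cluster 6 and differed between libraries. A UMI of C1qa, C1qb, C1qc or Csf1r was seen in 22.9%, 21.9% and 15.9% of cluster 6 cells in the aPD1, aCTLA4 and combination libraries, against 33.8% in the control library, and in 40.0%, 37.7% and 25.0% of cells of the other T cell clusters, against 44.0%. All 10 macrophage markers had UMIs in cluster 6 of every library, and their summed level was 1845, 1604 and 3258 CPM, against 4514 CPM in the control. Arg1, an enzyme of macrophages, had 11, 22 and 116 UMIs in cluster 6, against 2 in the control, and its combination ratio was 4.76 in cluster 6 and 4.06 in the other T cell clusters. Chil3, a secreted protein of macrophages, had 4 and 3 UMIs with aPD1 and aCTLA4, beside the 51 with the combination. C1qa had ratios of -3.45, -2.26 and -1.21 in cluster 6 (the combination value was 0.66 without the 3% highest Scrublet doublet scores) and -0.27, -1.50 and -1.01 in the other T cell clusters. The summed level of NK markers in cluster 6 was 1486, 2150 and 1272 CPM, against 2715 CPM, and that of T cell markers was 5481, 5447 and 5989 CPM, against 6503 CPM. The part of macrophage transcripts, of depth and of mitochondrial content in the ratios above was not tested beyond the alternatives given at the end.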

How the data were processed

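Per the labels' protocols, live CD45+ cells were sorted and sequenced as 3′ droplet libraries, and the submitters' processing notes name Cell Ranger, Seurat and the mm10 build, whose versions were not given in the sources used here. Deposited matrices hold UMI counts of 27998 genes in 14618 barcodes. The deposited cell tables hold cluster numbers and tSNE coordinates, a score without a unit, and 2 listed cells had no matrix column. Cells were not filtered again.

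UMI counts were summed per library and cell group and divided by the group's total (CPM). Log2 ratios had 0.5 added to each count, with exact conditional binomial intervals, Poisson intervals for levels and Clopper-Pearson intervals for shares. Genes needed 20 UMIs in the larger of the sums compared, and a gene was counted past a ratio of 2-fold. These steps were run on simulated Poisson counts, the model on which the intervals rest. The simulation had no spread between cells, so it cannot show how the intervals behave where 1 cell holds most UMIs of a gene. With 1 library per group no test was made. Genes were named from a list of 34, from the 12 (clusters) or 8 (antibodies) highest and lowest ratios among genes at 50 CPM or more, and from the top 5 of each lymphoid subset; the other genes shown were chosen after their values were seen, and some genes of the list are not reported here. The ranking between clusters also required the same sign of the ratio in all 4 libraries. The members and lists were chosen with earlier results of these data known. Scrublet, run in scanpy 1.11.5, marked 2 of 14491 cells as doublets, so its threshold did not work, and leaving out the 3% highest scores was an alternative. Python 3.11.15, numpy 2.4.6, scipy 1.17.1, pandas 2.3.3 and matplotlib 3.10.9 were used.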

Additional observations from a re-analysis of the deposited data

Results flagged for a closer look

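In 6 instances the ratio to control pointed in opposite directions in different cells, with counting intervals on either side of no change. None of these differences was tested, since each group had 1 library.

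Icos with the combination had a log2 ratio to control of 1.57 in cluster 6 and -0.37 in clusters 3, 8, 9 and 10. Ltb, the gene of lymphotoxin beta, had a ratio with aCTLA4 of 0.29 in cluster 6 and -0.44 in those other T cell clusters.

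Within cluster 6, Cxcr6 with the combination had a ratio of 0.47 in lymphoid 1 cells and -1.02 in lymphoid 6 cells. Ccl5 with the combination had a ratio of -0.46 in lymphoid 1 cells and 0.88 in lymphoid 6 cells, and the lymphoid 1 value was 0.05 without the top cell.

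The share of listed cells that were lymphoid 1 cells of cluster 6 was 1.76 times that of the control with aCTLA4 and 5.21 times with the combination, whereas for lymphoid 6 cells of cluster 6 these ratios were 0.718 and 0.523.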

How the results depend on the processing

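No paired analysis was possible because each group has 1 library. Thinning to 750 UMIs, the limit of 1000 UMIs, the lymphoid 6 subset and leaving out libraries were chosen after seeing the data. The combination ratio of the cluster 6 share of listed cells (1.93) was 1.49 among cells with at least 1000 UMIs and 2.31 without T cells that held macrophage transcripts, and its ratio among T cells (1.77) was 1.42 with at least 1000 UMIs.

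Counts of genes past 2-fold were the least stable values. With aPD1 the 154 higher genes became 83 after thinning to 1000 UMIs, 83 at 750 UMIs, 32 without each gene's top cell per library, 90 in lymphoid 1 cells, 95 in lymphoid 6 cells, and 288 or 52 with a minimum of 10 or 50 UMIs. The 180 lower genes became 103, 80, 61, 58, 119, 381 and 57 in that order, and 96 without cells with macrophage transcripts. With aCTLA4 the 154 higher genes became 97, 82 and 47 after the thinnings and without top cells, 78 in lymphoid 6 cells, and 306 or 52 with the other minima. The 180 lower genes became 105, 66 and 77, then 64 in lymphoid 1 cells, 425 or 55 with the other minima, and 102 without cells with macrophage transcripts. With the combination the 282 higher genes became 175 at 1000 UMIs, 174 without top cells, 69 in lymphoid 6 cells and 480 or 115 with the other minima. The 174 lower genes became 93 at 750 UMIs, 58 without top cells, 112 without cells with macrophage transcripts and 371 or 61 with the other minima. Against the other T cell clusters the 486 higher genes became 241 and 216 after thinning, 145 without top cells and 253 at 50 UMIs, and the 868 lower genes became 559 at 750 UMIs and 1548 without top cells. A higher minimum and thinning leave fewer genes to count. Leaving out top cells can take a larger part from the side with fewer cells. Other causes were not tested.

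Of 245 gene ratios, none moved beyond its interval under median-of-ratios scaling or a pseudocount of 1, 26 did with the mean of per-cell CPM, 50 when thinned to 1000 UMIs, 57 at 750 UMIs and 42 without cells with macrophage transcripts. In lymphoid 1 cells alone 131 moved and 13 reversed, and in lymphoid 6 cells alone 75 moved and 6 reversed, subsets that hold fewer cells. Ratios that reversed did so mostly in a subset. With aPD1, Klf2 was -0.054 and Ly6c1 -1.34 in lymphoid 6 cells, and Ifng was -0.027 when thinned to 1000 UMIs. Klra5 and Klra8 were 1.12 in lymphoid 1 cells with aPD1. Each of them had 1 UMI in all cluster 6 cells outside lymphoid 6, so each ratio rests on at most 1 UMI. With aCTLA4, Klf2 was -0.65 in lymphoid 6 cells. With the combination, Cd160 was 0.70 in lymphoid 1 and 0.20 in lymphoid 6 cells, and Cd4 was -0.089 and Klra4 0.34 in lymphoid 1 cells. Gadd45b was -0.61 and Klra7 0.077 in lymphoid 6 cells, and C1qa was 0.66 without the 3% highest Scrublet scores. In lymphoid 1 cells Cd160 had 4 UMIs with the combination against 0 in the control. Any of the 6 Klra genes was seen there in 1 of 298 cells with the combination and 1 of 55 in the control. No direction can be read from the lymphoid 1 values of Klra5, Klra8, Cd160 and Klra4. Lymphoid 1 cells alone had ratios to the other T cell clusters of -1.92 for Klra1, -2.64 for Klra4, -3.90 for Klra5, -1.33 for Klra6, -1.68 for Klra7, -1.59 for Klra8, -3.11 for Ncr1 and -0.58 for Samd3.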
